A study of Homo sapiens with 9 samples.

Results

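The EGF receptor family and its ligands were followed across 9 RNA sequencing libraries of EPC2 cells. The set was fixed by gene symbol in the deposited count table and holds 10 of its 64253 genes: the receptors EGFR, ERBB2, ERBB3 and ERBB4, and the ligands EGF, TGFA, AREG, EREG, HBEGF and BTC. EPC2 is described as a normal squamous cell line of the human esophagus, and each group had 3 libraries. The untreated cells received nothing, the empty vector cells received a vector without insert with Lipofectamine 2000, a lipid that carries DNA into cells, and the FOXF1 plasmid cells received an expression plasmid for the transcription factor FOXF1 with the same lipid. All 3 groups shared the culture conditions. The protocol lists keratinocyte serum-free medium with bovine pituitary extract and a recombinant supplement given as human Epidermal Growth, and it also names BEBM. The time from transfection to harvest and the share of cells that took up the plasmid were not given in the sources used here. The libraries are labelled biological triplicates, but no source ties them to separate cultures, and p-values cover the spread between libraries alone.

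The ErbB receptors are tyrosine kinases of the cell surface that act as pairs. EGFR binds EGF, TGFA, AREG, EREG, HBEGF and BTC, ERBB4 binds neuregulins and some of the EGF-like ligands, ERBB3 binds neuregulins but has little kinase activity of its own, and ERBB2 has no known ligand and is the preferred partner of the others. Most ligands are made as membrane proteins that metalloproteases release, and receptor signals pass through RAS and ERK, PI3K and AKT, and PLCG. In squamous epithelia the family is known for sustaining basal cell growth and wound closure, and keratinocytes feed it with their own ligands.

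FOXF1 was read 367, 184 and 141 times in the FOXF1 plasmid libraries, 1, 0 and 0 times in the untreated libraries and 0, 0 and 6 times in the empty vector libraries. Library totals lay between 34390666 and 39973289 reads, so a gene without a read could lie at up to 0.0751 to 0.0872 CPM (reads per 1000000 reads of the library), taking 3 reads as the limit. Reads of the mitochondrial genome took 18.6% to 22.4% of untreated libraries, 10.3% to 11.7% of empty vector libraries and 13.7% to 14.7% of FOXF1 plasmid libraries. The squamous identity of the label was not borne out by the following genes. TP63, the basal cell master regulator, had no read in any library. KRT5 had 8 to 19 reads per library, KRT14 had 0 to 4 and KRT13 had 0 to 2. Of 13 squamous basal markers 8 stayed below 1 CPM in every library, as did 10 of 14 differentiation markers. The simple epithelial keratins KRT8 and KRT18 averaged 1397 ± 80.6 and 1287 ± 183 CPM and the mesenchymal filament gene VIM averaged 801 ± 56.3 CPM (SD, n = 9). The epithelial genes CDH1 and EPCAM were lower, at 9.16 and 4.53 CPM on average. Below 1 CPM in every library were 1 of 8 simple epithelial markers and 5 of 14 mesenchymal markers, of which COL1A2 and LUM had no read. Among 6 leukocyte markers 5 stayed below 1 CPM and PTPRC, CD3E and LYZ had no read, while the sum of the 6 lay at 9.01 to 11.7 CPM.

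A cluster of ligand genes on chromosome 4 shows a sharp contrast within the set. AREG (ENSG00000109321, GRCh38, 74445134 to 74455009, plus strand) held 1236 reads over the 9 libraries. EREG, which starts 80.0 kb away on the same strand, held 8 reads, the related ligand gene EPGN, 136.7 kb away, held 0, and BTC, 349.6 kb away on the minus strand, held 12. The windows from 250 bases before to 50 bases after the start are shown for the first 3, since they set a transcribed gene beside neighbours that were hardly read. They are RefSeq sequences of GRCh38.p14, plus strand, 5′ to 3′, at chr4:74444886-74445185 for AREG, chr4:74364895-74365194 for EREG and chr4:74308220-74308519 for EPGN, with matches to the motifs searched in capitals.
AREG: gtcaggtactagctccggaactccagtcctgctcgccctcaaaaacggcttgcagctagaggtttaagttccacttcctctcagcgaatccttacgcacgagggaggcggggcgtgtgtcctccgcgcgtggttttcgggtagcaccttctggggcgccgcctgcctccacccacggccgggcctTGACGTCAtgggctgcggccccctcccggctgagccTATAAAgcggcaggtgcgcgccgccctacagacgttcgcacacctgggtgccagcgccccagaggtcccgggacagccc
EREG: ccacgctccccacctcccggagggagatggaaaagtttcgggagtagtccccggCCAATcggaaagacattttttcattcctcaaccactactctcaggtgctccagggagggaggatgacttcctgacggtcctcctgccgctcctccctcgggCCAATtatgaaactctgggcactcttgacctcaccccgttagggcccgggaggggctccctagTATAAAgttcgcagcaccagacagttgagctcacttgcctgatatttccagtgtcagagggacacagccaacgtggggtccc
EPGN: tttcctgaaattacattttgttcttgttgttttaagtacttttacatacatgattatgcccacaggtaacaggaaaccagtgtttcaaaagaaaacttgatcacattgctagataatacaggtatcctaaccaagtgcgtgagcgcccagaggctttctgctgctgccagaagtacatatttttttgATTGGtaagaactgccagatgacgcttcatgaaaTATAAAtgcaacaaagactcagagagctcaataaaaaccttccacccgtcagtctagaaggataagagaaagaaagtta

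Both strands were searched for 6 motifs: TGACGTCA (the cAMP response element), TGACTCA (AP-1), TGATGNAA (bound by ATF4), CCAAT (bound by NF-Y), TATAAA (the TATA box) and TGTTTAC (a forkhead core). The 3 windows share TATAAA, with its first base at -29 in AREG, -32 in EREG and -29 in EPGN, and 11.5% of 35116 RefSeq windows of this length hold that motif on either strand. TGACGTCA stands at -65 in AREG and in no other window of the family, against 1.85% of all windows. CCAAT stands at -196 and -95 in EREG and, on the opposite strand, at -63 in EPGN, and it is in 34.6% of all windows. The BTC window holds none of these 3 and a single TGTTTAC at -231, a motif in 3.42% of windows. The windows differ in CpG content, with 27 CpG in AREG, 12 in EREG, 12 in BTC and 4 in EPGN, against a median of 14 over all windows. Among the other members above the count filter, HBEGF had 38 CpG, ERBB2 24 and EGFR 33 at its upstream start but 1 at its downstream start. TGFA, whose reads were few, had 30 and 22 in its pair of windows. ERBB4 and EGF, each with 1 read, had 19 and 4. Among the members hardly read, TGFA and ERBB4 thus lay above the median and EGF, EREG and BTC below it. A link of CpG content to the reads was not tested. The RefSeq table matched 9 of the 10 members; ERBB3 was not matched. These matches are descriptions of letters, and no binding was measured.

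The family divided evenly into expressed genes and genes with hardly any reads. A minimum count filter, about 10 reads in at least 3 libraries, kept 5 of the 10 members among 16366 genes of the table. These were 3 of the 4 receptors (EGFR, ERBB2 and ERBB3) and 2 of the 6 ligands (AREG and HBEGF). To compare genes, CPM on library sizes scaled by TMM (a factor that corrects for composition) were divided by the summed exon length in kilobases. On this scale the order of mean levels was ERBB2 at 20.2, EGFR at 11.4, AREG at 2.17, ERBB3 at 1.08 and HBEGF at 0.728 CPM per kb. Among 13236 tested protein-coding genes with a length these are the 85.3, 76.6, 48.0, 36.1 and 29.3 percentiles, and the median gene lies at 2.43. No neighbours in this order overlapped in any of the 9 libraries, although the lowest ERBB3 value (0.8996) and the highest HBEGF value (0.868) nearly met. The order also held with the longest transcript as the length, where the lowest AREG value was 1.97 and the highest ERBB3 value 1.96 CPM per kb. Per length, ERBB2 made up 61.9% ± 2.77, EGFR 34.9% ± 2.75 and ERBB3 3.29% ± 0.40 of the summed receptor level (SD, n = 9).

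**Figure D1:**
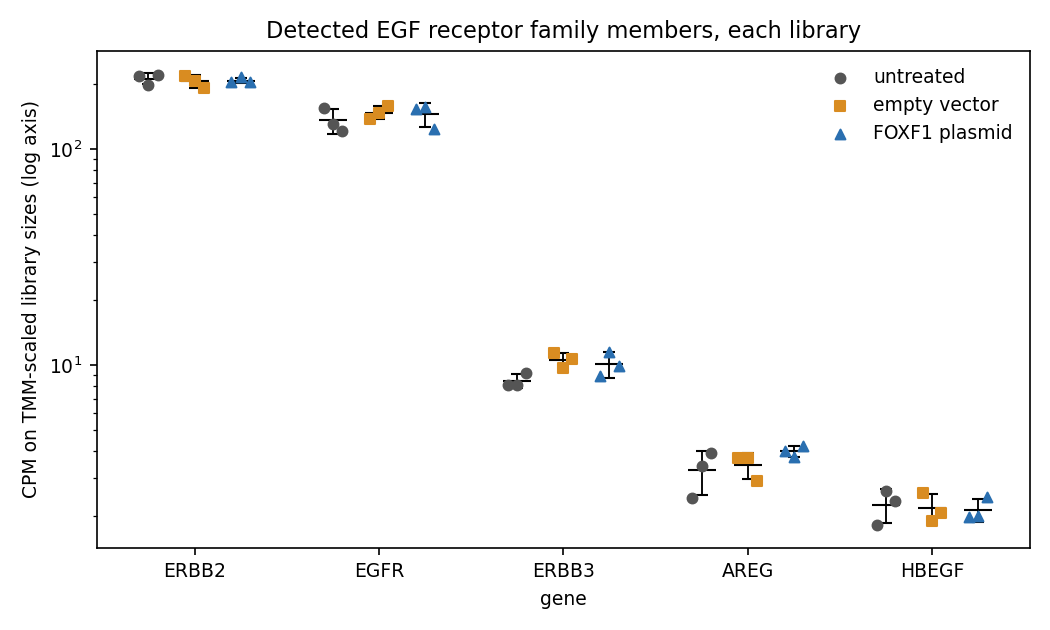
Level of the 5 tested members in each of the 9 libraries, as CPM on TMM-scaled library sizes on a log axis, by group (circles, untreated; squares, empty vector; triangles, FOXF1 plasmid); horizontal ticks are means and bars 1 SD of 3 libraries. ERBB2 and EGFR lie above 100 CPM, ERBB3 near 10 and AREG and HBEGF near 2 to 4, and the groups lie close together within each gene.

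None of the 5 tested members was called in any comparison at an adjusted p below 0.05 (edgeR quasi-likelihood test, Benjamini-Hochberg over 16366 genes). Over all tested genes, 19.6% were called between empty vector and untreated cells, 8.52% between FOXF1 plasmid and untreated cells and 0.055% between the transfected groups. At an unadjusted p below 0.05 the numbers of members were 1, 0 and 0. DESeq2 called 0 members with an adjusted p (5, 5 and 2 had one), and limma-voom called 0 of 5 in each comparison. A share of 0 of 5 cannot be set apart from these backgrounds, so the intervals of each member carry the result.

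ERBB2 (ENSG00000141736, chromosome 17, 39687914 to 39730426, plus strand), the ligandless partner receptor, had the narrowest spread. Its levels were 219, 199 and 221 CPM in untreated libraries. Empty vector libraries had 220, 208 and 192, and FOXF1 plasmid libraries 205, 215 and 204. The groups overlapped in every comparison. The log2 fold change was -0.04 ± 0.07 (SE) for the empty vector against untreated cells, with a 95% interval of -0.18 to 0.09 and an adjusted p of 0.707 (edgeR). For the FOXF1 plasmid it was -0.03 against untreated cells (-0.17 to 0.10) and 0.01 against the empty vector (-0.12 to 0.14), with edgeR adjusted p of 0.831 and 0.974. On the linear scale the last interval runs from 0.918-fold to 1.105-fold. ERBB2 lies across the opposite-strand genes PGAP3 and MIEN1, which had 998 to 1391 and 1515 to 1896 reads per library, and the strand setting of the counting is not given in the sources used here.

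EGFR (ENSG00000146648, chromosome 7, 55019021 to 55211628, plus strand), the receptor of all 6 ligands of the set, varied more between libraries of a group. It stood at 156, 131 and 121 CPM in untreated libraries. Empty vector libraries had 138, 147 and 159, and FOXF1 plasmid libraries 154, 158 and 124. Each group held high and low libraries and the groups overlapped. The log2 fold change was 0.12 ± 0.08 between empty vector and untreated cells (-0.05 to 0.30, edgeR adjusted p = 0.347) and 0.09 ± 0.08 between FOXF1 plasmid and untreated cells (-0.08 to 0.27, 0.574). Between the FOXF1 plasmid and the empty vector it was -0.03 (-0.20 to 0.14, 0.95). The antisense gene EGFR-AS1 had no read.

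ERBB3 (ENSG00000065361, chromosome 12, 56076799 to 56103505, plus strand), the receptor that relies on its partners' kinases, came nearest to a call. It stood at 8.13, 8.13 and 9.22 CPM in untreated libraries. Empty vector libraries had 11.4, 9.69 and 10.7, and FOXF1 plasmid libraries 8.90, 11.6 and 9.89. All 3 empty vector libraries lay above all 3 untreated libraries, which 17.4% of all tested genes also did, whereas the FOXF1 plasmid libraries overlapped both groups. The log2 fold change of the empty vector against untreated cells was 0.32 ± 0.13, with a 95% interval of 0.05 to 0.59, an unadjusted p of 0.0211 and an adjusted p of 0.0864 (edgeR). Over the alternative settings its adjusted p ran from 0.00273 to 0.242, and the lowest came from scaling by library totals. Between FOXF1 plasmid and untreated cells it was 0.25 ± 0.13 (-0.02 to 0.52, edgeR adjusted p = 0.264), and against the empty vector it was -0.07 (-0.33 to 0.20, 0.922).

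AREG, the amphiregulin gene, was the most abundant of the 6 ligands of the set. Its levels were 2.44, 3.42 and 3.94 CPM in untreated libraries, from 86, 124 and 139 reads. Empty vector libraries had 3.73, 3.75 and 2.91 CPM, and FOXF1 plasmid libraries 4.03, 3.77 and 4.24 CPM. The FOXF1 plasmid libraries all lay above the empty vector libraries, by a narrow gap between 3.75 and 3.77 CPM, as they did in 7.33% of all tested genes, and they overlapped the untreated libraries. The log2 fold change of the FOXF1 plasmid was 0.21 ± 0.20 against the empty vector (-0.19 to 0.62, edgeR adjusted p = 0.794) and 0.30 ± 0.20 against untreated cells (-0.11 to 0.70, 0.417). Between empty vector and untreated cells it was 0.08 (-0.33 to 0.49, 0.828). Differences up to 1.53-fold between FOXF1 plasmid and empty vector thus lie within the interval for AREG.

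HBEGF (ENSG00000113070, chromosome 5, 140332843 to 140346631, minus strand), a heparin-binding ligand released during wound closure, rested on 64 to 102 reads per library. It stood at 1.82, 2.62 and 2.35 CPM in untreated libraries. Empty vector libraries had 2.57, 1.91 and 2.07, and FOXF1 plasmid libraries 1.99, 2.001 and 2.45. The groups overlapped in all comparisons. The log2 fold changes were -0.06 (-0.53 to 0.42) and -0.08 (-0.56 to 0.41) for empty vector and FOXF1 plasmid cells against untreated cells, and -0.02 (-0.50 to 0.46) between the transfected groups. Their edgeR adjusted p were 0.907, 0.9 and 0.986. The data therefore leave HBEGF levels from 0.707 to 1.37 times the empty vector level within the interval of the FOXF1 plasmid.

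**Figure D2:**
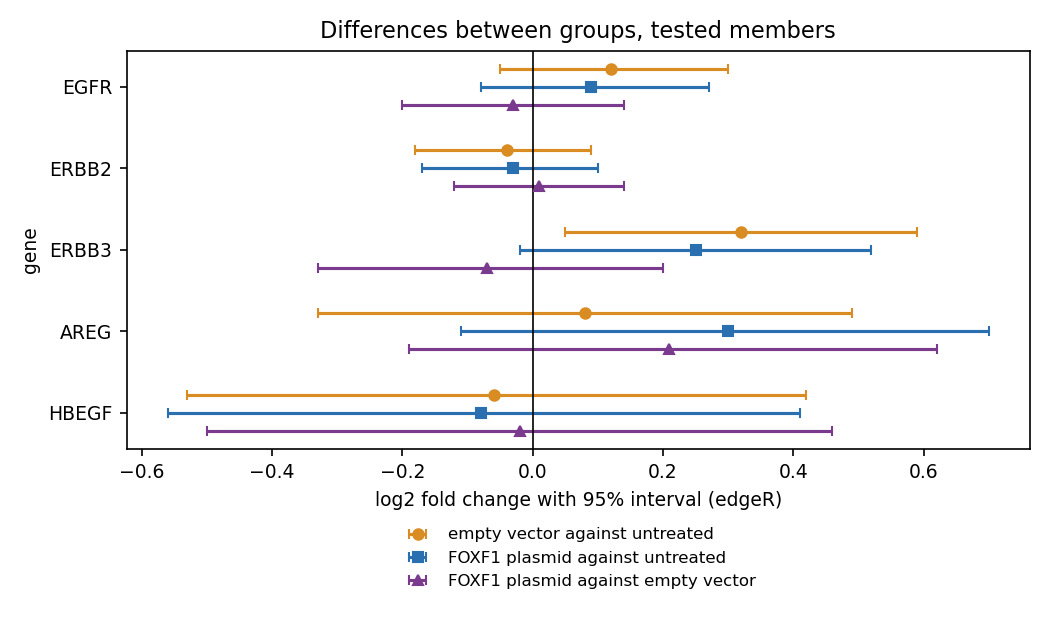
Log2 fold change of the 5 tested members with 95% intervals from the edgeR test, for the 3 comparisons (circles, empty vector against untreated; squares, FOXF1 plasmid against untreated; triangles, FOXF1 plasmid against empty vector). Every interval includes 0 apart from ERBB3 in the empty vector against untreated cells (0.05 to 0.59), and the intervals widen from ERBB2 to HBEGF as reads become fewer.

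Ratios of reads within a library need no scaling factor, and 4 of them were taken after the values were seen. The reads of ERBB3 per read of ERBB2 were 0.0372, 0.0409 and 0.0418 in untreated libraries. Empty vector libraries had 0.0518, 0.0466 and 0.0560, and FOXF1 plasmid libraries 0.0435, 0.0539 and 0.0485. Every transfected library had a higher ratio of ERBB3 to ERBB2 than every untreated library. The share of gene pairs that do so was not computed. The mean log2 ratio was higher than in untreated cells by 0.36 in empty vector and 0.28 in FOXF1 plasmid cells, each with an exact two-sided permutation p of 0.1, the smallest that 3 against 3 libraries allow, and an adjusted p of 0.4 over 12 tests. Both differences share the untreated libraries, and ERBB3 alone also lay above them without overlap in empty vector cells. Single genes lay above untreated libraries in this way in 17.4% of tested genes for the empty vector and 14.1% for the FOXF1 plasmid. The FOXF1 plasmid and empty vector groups overlapped in the ratio of ERBB3 to ERBB2 (difference -0.08, exact permutation p = 0.6). The ratio of EGFR to ERBB2 reads ran from 0.55 to 0.712 in untreated, 0.63 to 0.828 in empty vector and 0.606 to 0.753 in FOXF1 plasmid libraries, and overlapped throughout. The ratio of ERBB3 to EGFR reads overlapped in every comparison, with log2 differences of 0.19 and 0.15 against untreated cells and -0.04 between the transfected groups (exact permutation p = 0.4, 0.6 and 0.9). The mean log2 ratio of AREG to HBEGF was 0.52 ± 0.20 in untreated, 0.67 ± 0.27 in empty vector and 0.91 ± 0.11 in FOXF1 plasmid libraries (SD, n = 3). The FOXF1 plasmid libraries were above the untreated ones without overlap (exact permutation p = 0.1, adjusted p = 0.4) but overlapped the empty vector ones (exact permutation p = 0.3). Of single tested genes, 14.1% were also above the untreated libraries without overlap.

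The scaling decided whether the receptors were called. With library totals as the sole scale, the median over all tested genes moved from 0.04 to 0.29 on the log2 scale between empty vector and untreated cells. EGFR then had 0.37, ERBB2 0.20 and ERBB3 0.56, with edgeR adjusted p of 0.00189, 0.0154 and 0.00273. Under that scaling 37% of all tested genes were called, against 19.6% with TMM factors. Of these calls 94.4% were higher, against 52.2% with TMM factors. The change of factors shifted all genes nearly alike, by 0.25 at the median. Values relative to that median were therefore bound to stay nearly the same, at 0.08, -0.09 and 0.27 for EGFR, ERBB2 and ERBB3. With the mitochondrial genes left out and factors recomputed, they had 0.11, -0.05 and 0.31, and none was called. ERBB2 thus changed sign with library totals, and the differences are reported relative to the TMM factors.

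**Figure D3:**
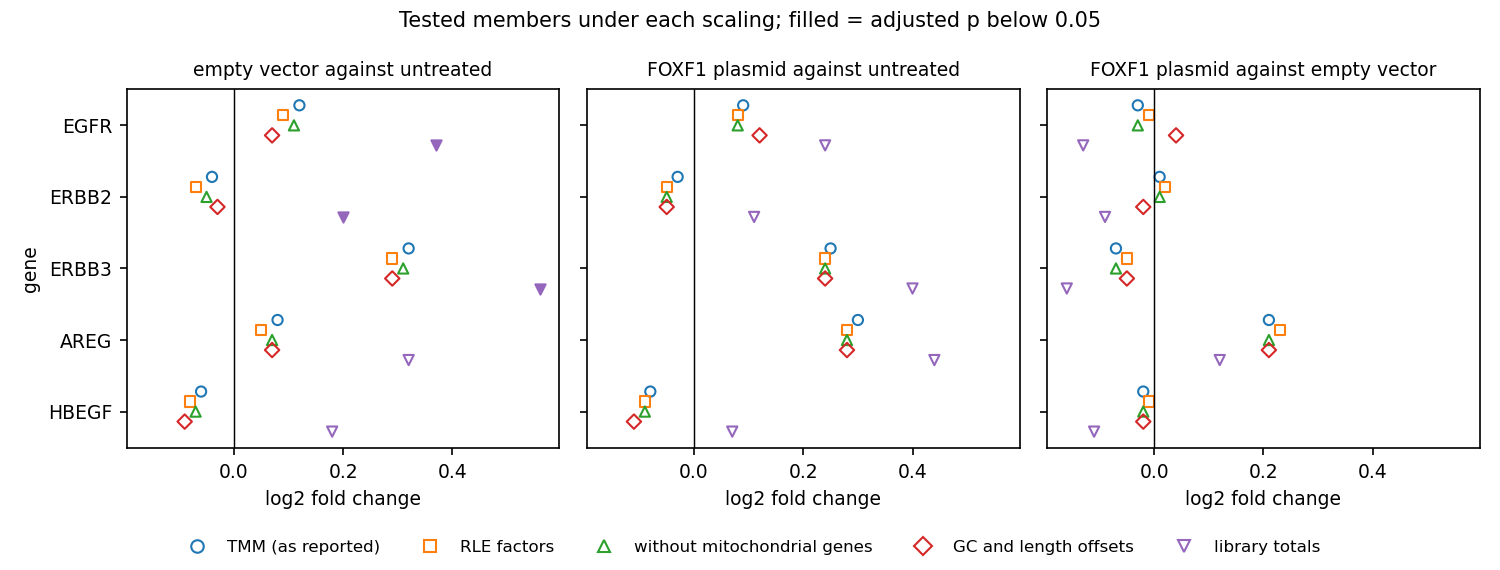
Log2 fold change of the 5 tested members under 5 ways of scaling or offsetting the counts, for the 3 comparisons; filled symbols have an adjusted p below 0.05 (edgeR). Only scaling by library totals (downward triangles) moves the members as a group, to 0.37 for EGFR and 0.56 for ERBB3 in the empty vector against untreated cells.

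The remaining members lay at or near the limit of detection. TGFA (chromosome 2, 70447280 to 70554193, minus strand), an autocrine ligand of keratinocytes, had 3, 2 and 4 reads in untreated, 11, 8 and 17 in empty vector and 6, 4 and 2 in FOXF1 plasmid libraries. The empty vector libraries lay above both other groups without overlap, as they did above untreated libraries in 17.4% and above FOXF1 plasmid libraries in 5.68% of the genes that passed the filter. Per library totals and without TMM factors, the pooled reads, 36 against 9, gave a level 4.0 times that of untreated cells (exact 95% counting interval 1.89 to 9.44). On the same scale the FOXF1 plasmid level was 0.353 times that of the empty vector (0.167 to 0.695). On TMM-scaled library sizes the means were 0.0846, 0.285 and 0.107 CPM in untreated, empty vector and FOXF1 plasmid libraries. Counting intervals leave out the spread between libraries. The exact permutation p was 0.1 for both, the smallest possible. Without a filter on low counts the edgeR log2 fold changes were 1.72 ± 0.90 and -1.40 ± 0.87, with adjusted p of 0.27 and 0.78. No TGFA difference passed a test over libraries.

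BTC, betacellulin, had 1 read in untreated, 2 in empty vector and 9 in FOXF1 plasmid libraries, the last as 5, 0 and 4. EREG, epiregulin, had 0, 5 and 3 reads in the 3 groups, with 4 of the 5 empty vector reads in a single library. EGF itself had 1 read, in an untreated library, and ERBB4 had 1 read, in an empty vector library. The mean reads per library of BTC, EREG, EGF and ERBB4 were at or under 3 in each group, so no fold is given. The pooled limit of 3 reads was 0.0256 CPM in untreated and empty vector cells and 0.0272 CPM in FOXF1 plasmid cells. Such levels are averages over all cells, and a transcript in few cells cannot be told apart from a low level in many.

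**Figure D4:**
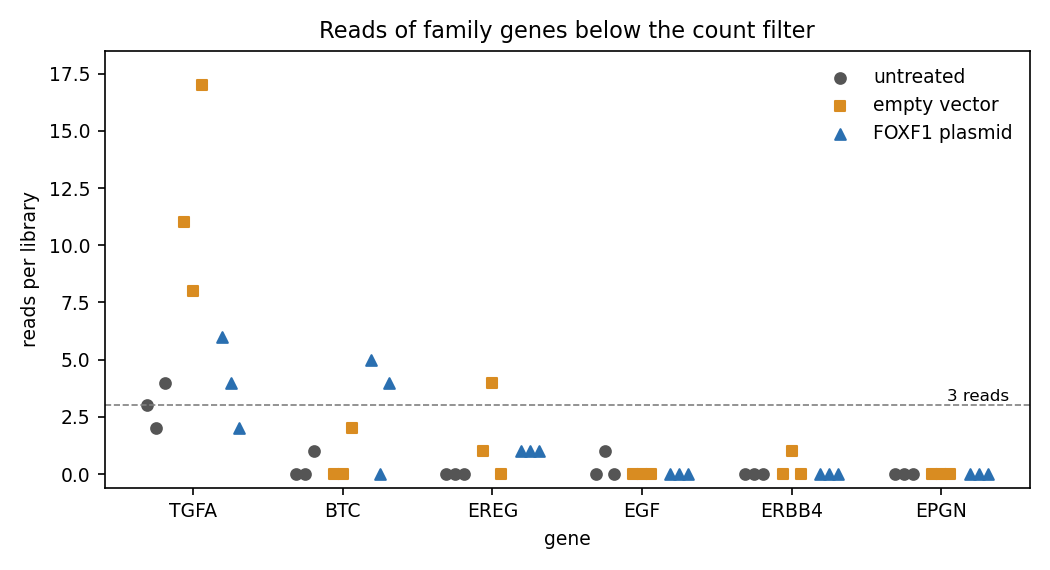
Reads per library of TGFA, BTC, EREG, EGF, ERBB4 and the related ligand gene EPGN, by group (circles, untreated; squares, empty vector; triangles, FOXF1 plasmid); the dashed line marks 3 reads. TGFA reached 8 to 17 reads with the empty vector, and the others had 0 to 5 reads per library.

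Of the 5 further ligand genes of the family, only neuregulins were read. NRG2, a ligand of ERBB3 and ERBB4, averaged 4.96 ± 0.621, 5.42 ± 0.631 and 5.86 ± 0.583 CPM in untreated, empty vector and FOXF1 plasmid cells (SD, n = 3). NRG1, which binds the same receptors, averaged 0.776 ± 0.146, 0.961 ± 0.161 and 0.892 ± 0.122 CPM. Neither passed the edgeR test, and the smallest adjusted p was 0.422, for NRG2 in the FOXF1 plasmid against untreated cells. Per length NRG2 lay at 1.20 CPM per kb, next to ERBB3. NRG3 and NRG4 had 0 to 4 reads per library and EPGN had none.

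Downstream of the receptors, the genes that ERK signalling is known to induce held the most calls. Of 17 such genes, 12 rose and 2 fell with the empty vector against untreated cells, beside 10.2% and 9.37% of all tested genes, and the list median was 0.48 against 0.04 for all genes. DUSP6, a phosphatase that inactivates ERK, rose from 1.23 ± 0.23 to 3.49 ± 0.407 CPM (log2 fold change 1.51 ± 0.22, edgeR adjusted p = 1.24e-05). SPRED1, an inhibitor of RAS signalling, rose by 1.16 (0.00129) and FOS, an AP-1 subunit, by 0.98 (0.000232). The 2 that fell, named after their values were seen, were ETV4 (-0.33, 0.016) and CCND1 (-0.24, 0.0494), calls that were lost with library totals, where 15 of 17 rose and 0 fell. Library totals called 37% of all tested genes there. Without empty vector replicate 2, 9 genes of the list were called, beside 12.5% of all tested genes. With the FOXF1 plasmid against untreated cells 8 rose and 0 fell, beside 4.63% and 3.89% of all genes. With library totals 14 rose and with GC and length offsets 10, beside 15.3% and 13.3% of all genes called in either direction. DUSP6 (1.53, 2.6e-05), FOS (1.17, 6.34e-05) and EGR1 (0.82, 0.000497), a zinc finger immediate early factor, had the largest rises. For EGR1 the FOXF1 plasmid and untreated libraries overlapped, at 20.74 ± 5.085 and 11.77 ± 3.182 CPM. Both comparisons share the untreated libraries, and between the FOXF1 plasmid and the empty vector 0 of 17 were called, with a median of 0.03. The list was chosen with earlier results of these data known, so its direction is no independent evidence. Marker sums differed between the groups as well. The summed squamous basal markers lay at 138 to 149 CPM in untreated, 162 to 170 in empty vector and 159 to 172 in FOXF1 plasmid libraries, and the differentiation markers at 203 to 210, 218 to 241 and 232 to 245 CPM, so that both transfected groups lay above untreated libraries without overlap. So did 17.4% and 14.1% of all tested genes taken singly for the empty vector and the FOXF1 plasmid, and the share for sums was not computed. The tested basal markers had medians of 0.25 and 0.16, with 1 and 0 of 8 called. Of 5 tested differentiation markers, 1 rose and 1 fell with the empty vector and 2 rose with the FOXF1 plasmid, with medians of -0.09 and -0.02. The simple epithelial sum lay at 4119 to 4760, 3502 to 3928 and 4029 to 4293 CPM, with only the empty vector group apart from untreated libraries, and the mesenchymal sum at 4213 to 4564, 4450 to 4685 and 4604 to 5175 CPM, with only the FOXF1 plasmid group apart. Over all tested genes taken singly, 15.3% lay lower with the empty vector and 14.1% higher with the FOXF1 plasmid without overlap. The part of these sums and of the mitochondrial share in the list results was not tested.

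The RAS to ERK cascade moved in both directions. Of its 16 tested genes, 3 rose and 3 fell with the empty vector against untreated cells, beside 10.2% and 9.37% of all tested genes, and their median was -0.04. NRAS, a RAS GTPase, rose by 0.67 ± 0.15 (edgeR adjusted p = 0.00221) and MAP2K1, the kinase upstream of ERK, by 0.57 ± 0.07 (1.08e-06), while HRAS fell by 0.53 ± 0.08 (3e-05) on the log2 scale. With library totals 7 rose and 2 fell, and with GC and length offsets 3 rose and 5 fell, beside 37% and 21% of all genes called. With the FOXF1 plasmid against untreated cells 2 rose and 2 fell, beside 4.63% and 3.89% of all genes. With GC and length offsets 2 rose and 5 fell, and with library totals 3 rose and 0 fell, beside 13.3% and 15.3% of all genes called. MAP2K1 rose from 72.0 ± 5.77 to 95.9 ± 4.91 CPM (0.41, 0.000234) and GRB2, the adaptor that couples receptors to RAS, by 0.32 (0.00165). HRAS fell by 0.34 (0.0087) there, a call that was lost with library totals (-0.19, 0.112) and without untreated replicate 1 (-0.28, 0.0687), which also took the count from 4 to 2. None of the 16 was called between the FOXF1 plasmid and the empty vector, where DESeq2 called MAP2K2 (0.24, 0.0365) and ARAF (0.19, 0.0469), named after their values were seen.

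The list labelled receptor attenuation holds 19 tested regulators of the receptors, which need not all lower receptor signals. Of these, 4 rose and 1 fell with the empty vector against untreated cells, beside 10.2% and 9.37% of all tested genes. Their median was 0.20. A count of 5 of 19 is near the 19.6% called over all genes. With library totals 12 rose and 0 fell, with GC and length offsets 3 rose and 3 fell, and without empty vector replicate 2 the count of calls was 2. Over all tested genes these settings called 37%, 21% and 12.5%. ERRFI1, an inhibitor that binds the EGFR kinase, rose from 111 ± 1.09 to 160.5 ± 5.73 CPM (log2 fold change 0.53 ± 0.07, edgeR adjusted p = 1.54e-06). LRIG3, a transmembrane protein of the LRIG family, rose from 1.67 ± 0.24 to 3.29 ± 0.255 CPM (0.98 ± 0.22, 0.00153). EPS15, an endocytic adaptor, rose by 0.45 (0.0348), a call that was lost with GC and length offsets (0.22, 0.29) and without untreated replicate 1 (0.30), empty vector replicate 2 (0.47) or empty vector replicate 3 (0.40). With the FOXF1 plasmid against untreated cells 2 rose and 1 fell, beside 4.63% and 3.89% of all genes. The count became 5 with library totals or with GC and length offsets, and 1 without untreated replicate 1 or without FOXF1 plasmid replicate 3. Over all tested genes these settings called 15.3%, 13.3%, 5.27% and 5.22%. ERRFI1 had 0.54 ± 0.07 (2.6e-06) and LRIG3 0.86 ± 0.22 (0.012). The LRIG3 call was lost without untreated replicate 1 (0.73, 0.0788), FOXF1 plasmid replicate 1 (0.80, 0.0522) or FOXF1 plasmid replicate 3 (0.80, 0.0585). ERBIN, which binds ERBB2 and is listed as ERBB2IP, fell by 0.63 ± 0.18 (0.0244), a call that was lost with library totals (-0.48, 0.109) and without untreated replicate 1 (-0.60) or 2 (-0.60), or FOXF1 plasmid replicate 2 (-0.54) or 3 (-0.69). ERBIN had -0.25 for the empty vector against untreated cells, and was called there with GC and length offsets (-0.52, 0.00603). None of the 19 was called between the transfected groups, except for ERBIN when empty vector replicate 1 was left out (-0.59, 0.0478).

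Of 8 genes for ligand release 7 were tested, and 1 of them was called in each comparison with untreated cells, beside 19.6% of all genes for the empty vector and 8.52% for the FOXF1 plasmid. ADAM12, a metalloprotease that can shed HBEGF, rose from 5.58 ± 0.187 to 8.51 ± 0.764 CPM with the empty vector (log2 fold change 0.61 ± 0.14, edgeR adjusted p = 0.00239). It had 0.53 ± 0.14 (0.0155) with the FOXF1 plasmid against untreated cells, a call that was lost without untreated replicate 1 (0.52, 0.0521), untreated replicate 3 (0.50, 0.0513) or FOXF1 plasmid replicate 1 (0.44, 0.103). With library totals 5 of the 7 rose in empty vector cells and 2 in FOXF1 plasmid cells, beside 37% and 15.3% of all genes called. With GC and length offsets 2 rose with the empty vector, beside 21% of all genes called. The list medians were 0.09 and -0.00 against untreated cells. None of the 10 tested genes of the PI3K, PLCG and STAT list was called in any comparison. At library totals 5 rose with the empty vector against untreated cells, beside 37% of all genes called. DESeq2 called PLCG1, a phospholipase bound by the receptors and named after its values were seen, at -0.18 in both comparisons with untreated cells (adjusted p = 0.0267 and 0.0343).

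**Figure D5:**
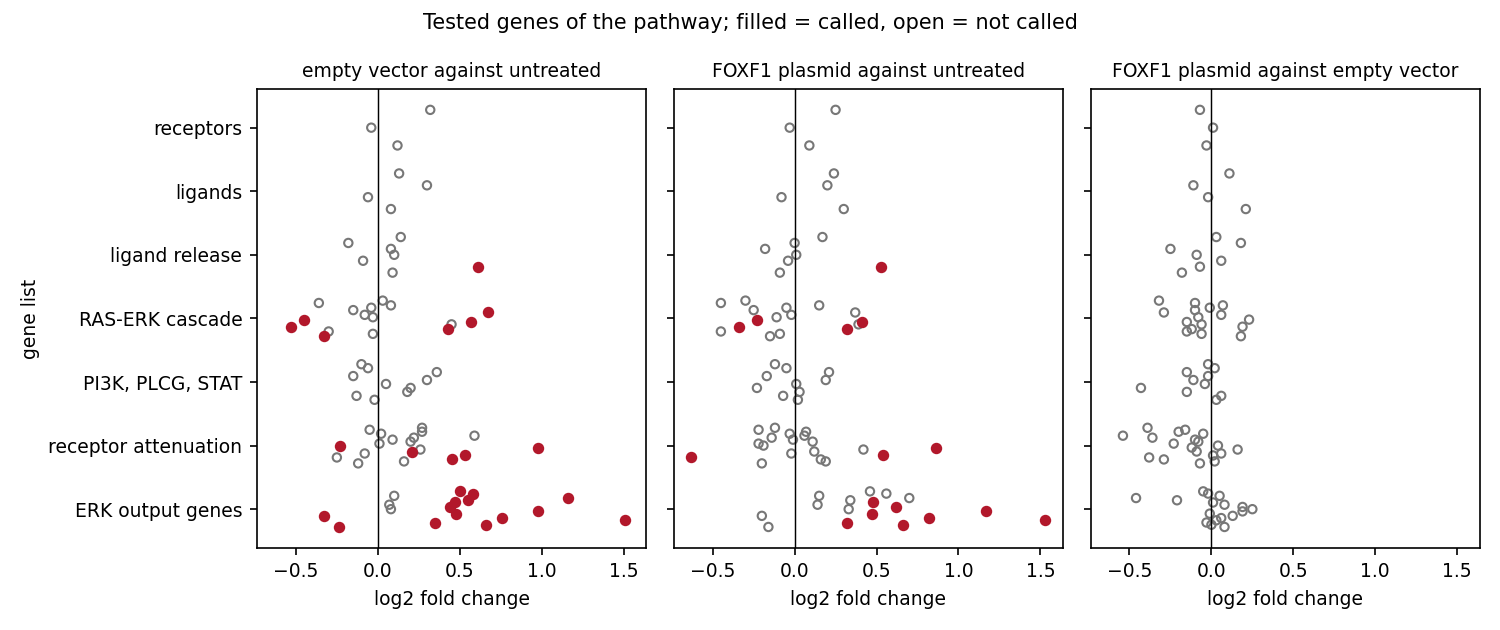
Log2 fold change of every tested gene of the receptors, ligands and 5 downstream or accessory lists in the 3 comparisons (1 circle per gene, offset vertically for legibility; ligands include NRG1 and NRG2); filled circles passed the edgeR test at an adjusted p below 0.05. Receptors and ligands hold no filled circle in any panel, the ERK output genes hold 12 rises and 2 falls in the left panel, and the right panel holds none.

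The profile of ERBB3 across the 9 libraries was most like those of INPP5A, an inositol phosphatase (Pearson's r = 0.979), ARF1, a GTPase of the Golgi (0.952), and SERPINB6, a protease inhibitor (0.948), among 7230 genes. INPP5A averaged 11.2, 12.8 and 12.3 CPM in untreated, empty vector and FOXF1 plasmid cells, a smaller step than that of ERBB3, at 8.49, 10.6 and 10.1 CPM. The profile of EGFR was most like those of STXBP5, a syntaxin-binding protein (0.924), BCOR, a corepressor (0.916), and ATXN1L (0.9). These are the highest of many correlations over 9 libraries that share scaling factors and group differences, and they are given as descriptions.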

How the data were processed

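Polyadenylated RNA of 9 EPC2 libraries was sequenced after a stranded kit, per the labels' protocols. The authors deposited raw read counts per gene; bcl2fastq, STAR 2.5.2b, HTSeq and GRCh38 are named in the submitters' processing notes. For the annotation release, the strand setting of counting and trimming, nothing was given in the sources used here. Positions and exon lengths are from GENCODE 29 (GRCh38), which holds 56591 of 64253 gene identifiers, and promoter windows from RefSeq.

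The deposited counts went into edgeR 4.0.16 (R 4.3.3): filterByExpr with a minimum count of 10, TMM factors, a mean per group over all 9 libraries, the quasi-likelihood F test and Benjamini-Hochberg adjustment over 16366 genes, with calls at an adjusted p below 0.05. The common biological coefficient of variation was 0.101. Standard errors are the absolute log2 fold change over the square root of F, and 95% intervals use the test's degrees of freedom. Alternatives were DESeq2 1.42.0, limma-voom 3.58.1, other scalings and filters, GC and length offsets, fits of the compared groups, a replicate block and leaving out each library. Replicate pairs differed by a chi-square per degree of freedom of 8.6 to 23.2, and all libraries were kept. Intervals and limits from reads cover counting error only.

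Members and lists were chosen with earlier results of these data known. All 10 members are named, with up to 3 called genes of largest change per list and comparison (mean of at least 1 CPM) and, for the 2 members with the largest F for the empty vector against untreated cells, the 3 genes of most similar profile (mean of at least 10 CPM, clone-style names and pseudogenes left out). The rule gave promoter windows only for called ligands, of which there were none, so the windows shown were chosen after the values were seen. Protein sequences were not used here, so the planned search for EGF-like domains was not run.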

Additional observations from a re-analysis of the deposited data

How the results depend on the processing

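The count of called members was 0 in all 3 comparisons and stayed 0 under every alternative run, except that scaling by library totals called 3 for the empty vector against untreated cells. That scaling called 37% of all tested genes in the same comparison. With a library left out, the lowest edgeR adjusted p of a member was 0.0838 (ERBB3, without untreated replicate 3). Small differences of uncalled members changed sign. With library totals these were ERBB2 (0.20, 0.11 and -0.09 in the empty vector against untreated, FOXF1 plasmid against untreated and FOXF1 plasmid against empty vector comparisons) and HBEGF (0.18 and 0.07 against untreated cells). Between the FOXF1 plasmid and the empty vector, EGFR became 0.04 and ERBB2 -0.02 with GC and length offsets, and ERBB2 -0.01 without a filter and -0.00 with only the groups compared.

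With a library left out, signs turned for ERBB2 (-0.10 to 0.01), AREG (-0.10 to 0.23) and HBEGF (-0.20 to 0.05) between empty vector and untreated cells, and for HBEGF (-0.22 to 0.03) between FOXF1 plasmid and untreated cells. Between the transfected groups they turned for EGFR (-0.09 to 0.07), ERBB2 (-0.04 to 0.06), ERBB3 (-0.18 to 0.02), HBEGF (-0.13 to 0.11), EGR1 (-0.06 to 0.25), DUSP6 (-0.06 to 0.10) and ERRFI1 (-0.07 to 0.08).

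Among the pathway genes, ERBIN became 0.00 with library totals in the empty vector against untreated cells. Between the FOXF1 plasmid and the empty vector, EGR1, DUSP6 and ERRFI1 became -0.05, -0.08 and -0.09 with library totals, and ERRFI1 -0.01 without a filter and -0.00 with only the groups compared. None of these was called there.

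Counts over all genes moved with the setting. Between the transfected groups, 9 genes became 94 with DESeq2, 16 with RLE factors, 4 without mitochondrial genes, 96 without a filter and 16 with the replicate block. With a library left out they ran from 1 (without FOXF1 plasmid replicate 2) to 326 (without empty vector replicate 1). For the FOXF1 plasmid against untreated cells, 1394 became 2500 with library totals and 2175 with GC and length offsets, and 817 to 1729 with a library left out. For the empty vector, 3209 became 6059 with library totals and 2092 to 3897 with a library left out. With RLE factors 44.9% and 48.5%, and with GC and length offsets 42.9% and 44.4%, of the calls against untreated cells were higher for the empty vector and the FOXF1 plasmid, against 52.2% and 54.3% here; library totals gave 94.4% and 92.8%. Beyond the fewer or more genes and libraries that a setting holds, the cause was not tested.

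The replicate block called 0 members, and ERBB3 had 0.32 with an adjusted p of 0.092. Same-numbered libraries correlated by -0.09 to 0.084 in their deviations from group means, so the numbers were not treated as pairs. Reads limit the ligands most: AREG and HBEGF rested on 64 to 165 reads per library.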
